A study of Mus musculus with 12 samples.

Results

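The effect that ISRIB had in common in resting and in M1-like macrophages was measured over all 12 libraries of the series, 6 from cells given ISRIB and 6 from cells given vehicle. The 12 libraries were chosen by their titles alone, and they are all the libraries of the series. Polyadenylated RNA was sequenced from bone marrow-derived macrophages of the mouse, which are grown from marrow cells with the growth factor M-CSF (10 ng/ml for 6 days). Vehicle cells received DMSO and ISRIB cells 50 nM ISRIB for 1 h, in M0 and M1 alike. M1 cells were then kept in the same DMSO or ISRIB through 16 h with LPS at 10 ng/ml and IFN-γ at 25 ng/ml. Each of these 4 groups had 3 libraries that the titles call biological replicates. Mouse strain, sex and age, and what M0 cells received during the 16 h, are not given in the sources used here. The labels do not say whether replicates came from separate animals, so p-values measure the spread between these samples.

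The integrated stress response is a signalling route in which several kinases phosphorylate the translation factor eIF2. Phosphorylated eIF2 blocks its exchange factor eIF2B, general protein synthesis falls, and messages such as that of the transcription factor ATF4 are translated more. ATF4 then activates genes for amino acid synthesis and transport, tRNA charging and stress adaptation. ISRIB binds eIF2B and keeps it active when eIF2 is phosphorylated, which is why it is used to switch the response off. It acts on translation, so changes in RNA are a downstream readout.

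The RNA readout of this route is carried in part by short promoter elements, shown here because the stress response and interferon genes described below carry them. ATF4 with a C/EBP partner binds the CARE element. The letters TGATGNAA, on either strand, stood in the RefSeq promoter window (250 bases before to 50 after the start, GRCm38.p6) of 13 of 36 listed stress response targets with a window, 36.1%, against 4.51% of 27025 genes. Interferon-stimulated genes carry the ISRE. A pair of GAAA tetrads with any 2 bases between them, on either strand, stood in the window of 17 of 28 listed interferon-stimulated genes, 60.7%, against 3.99% of all genes. A match is a description of these letters and no evidence of binding. Below, capitals mark the matched letters in 3 windows of each kind, written 5′ to 3′ on the strand of the gene, all from before the RefSeq start.
Atf3, chr1:191183420-191183459, minus strand: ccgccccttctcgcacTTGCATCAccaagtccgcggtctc
Chac1, chr2:119351033-119351072, plus strand: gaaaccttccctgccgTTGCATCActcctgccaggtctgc
Slc7a11, chr3:50443656-50443695, minus strand: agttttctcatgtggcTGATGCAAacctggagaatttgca
Ifit1, chr19:34640769-34640810, plus strand: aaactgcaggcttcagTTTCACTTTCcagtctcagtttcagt
Rsad2, chr12:26456547-26456588, minus strand: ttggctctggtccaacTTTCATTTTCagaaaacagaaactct
Gbp7, chr3:142530267-142530308, plus strand: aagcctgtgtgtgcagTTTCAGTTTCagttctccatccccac

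Libraries held 439976 to 514037 counts. Neither total counts, genes with a count nor the share of the 10 most counted genes differed detectably between ISRIB and vehicle in two-sided exact permutation tests within state (p = 0.535, 0.62 and 0.375 over 400 arrangements, adjusted p = 0.62 for each, with 0.005 the smallest possible). Of the listed macrophage markers 7 of 9 were counted well enough to test. Summed counts of the 9 were 262 to 465 in vehicle M0, 213 to 361 in ISRIB M0, 112 to 264 in vehicle M1 and 187 to 269 in ISRIB M1. The lists for neutrophils, T cells, B cells, mast cells, erythroid cells and stroma had at most 16 summed counts in any library, and stroma had 0. Of the dendritic list Flt3 and Zbtb46 were at 0 throughout, while Xcr1 reached 434 counts in ISRIB M1 and 404 in vehicle M1. Clec9a, of the same list, ran the other way across states, with 10, 32 and 13 counts in vehicle M0, 10, 31 and 47 in ISRIB M0 and 0 in all M1 libraries. An opposite-strand neighbour with overlapping exons was annotated for 66.3% of tested genes and 87.7% of those averaging 50 counts or more. Such genes were 24.2% of all symbols with an annotation but held 92.3% of the counts, whereas Actb averaged 142.0 counts and Gapdh 17.5. The strand setting of the counting is not given in the sources used here, and whether the opposite strand was counted was not tested. Reads of a gene and of its opposite-strand neighbour therefore cannot be told apart. Each gene below is a symbol with counts in that sense, and overlaps are not named for every gene that has one.

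The question of the comparison was which genes ISRIB moved the same way in both states, with state as a covariate and 6 libraries a side. No gene passed. By edgeR (quasi-likelihood, with p-values adjusted by Benjamini and Hochberg), 0 of 2356 tested genes (0%) reached an adjusted p of 0.05. An unadjusted p under 0.05 was found for 92 (3.9%), with 45 higher (1.91%) and 47 lower (1.99%) under ISRIB. The lowest adjusted p by edgeR was 0.914, shared by 16 genes. DESeq2 called 0 genes with 111 at an unadjusted p under 0.05, and limma on the deposited log2 values called 0 with 128. Limma-voom called 2, Prune2 and Gm15441, with 127 at an unadjusted p under 0.05. In the same additive edgeR fit, M1 against M0 gave 1340 genes (56.9%), 695 higher (29.5%) and 645 lower (27.4%) in M1. Tested in each state alone by edgeR, ISRIB gave 0 genes (0%), with 143 at an unadjusted p under 0.05 in M0 (6.07%) and 134 in M1 (5.69%). In bulk RNA, fewer cells that express a gene and less RNA of it per cell cannot be told apart.

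**Figure D1:**
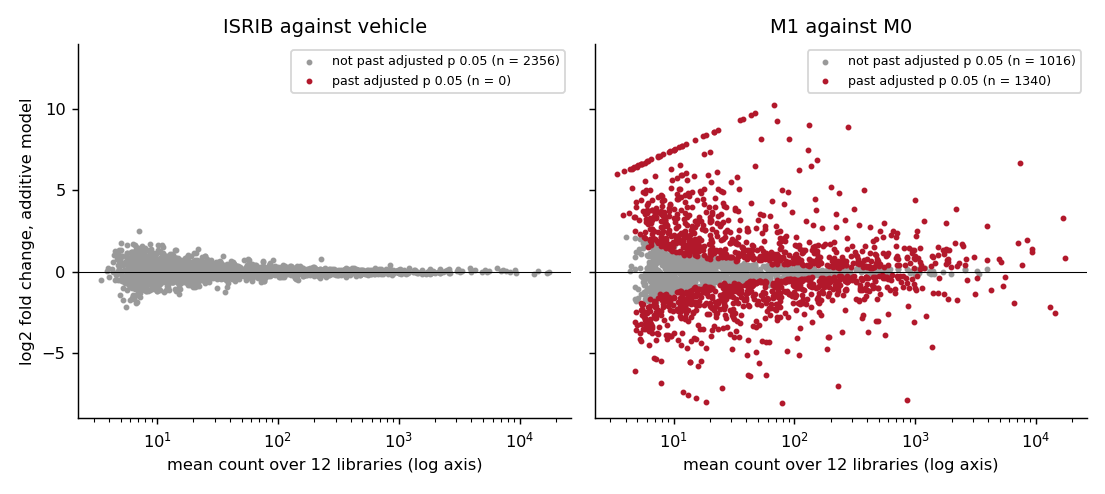
Log2 fold change from the additive edgeR model against the mean count over 12 libraries (log axis), 1 point per tested gene, for ISRIB against vehicle (left) and M1 against M0 (right) on the same vertical scale. Red points passed an adjusted p of 0.05: 0 genes on the left and 1340 on the right.

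The differences under ISRIB pooled over both states were small where counts were high. Among 836 genes averaging 50 counts or more, the absolute log2 fold change had a median of 0.093 for ISRIB and of 0.63 for M1 against M0. The 95th percentile was 0.33 for ISRIB against 3.58 for state. No such gene differed by a log2 fold change of 1 or more with ISRIB in the pooled fit, and 285 did with state. Within a single state, 15 of the 836 did with ISRIB in M0 and 7 in M1. The pooled fit also bounds what could have been missed of an effect common to both states. For 824 of the 836 genes (98.6%) the 95% interval of the ISRIB effect lay within 1 log2 unit of 0 on either side, and for 573 (68.5%) within 0.5. Intervals here are for single genes and are not adjusted for the number of genes. The 1520 tested genes with fewer counts were bounded less well: 356 (23.4%) had an interval within 1 log2 unit, and the median half-width was 1.05 against 0.30. State took a median 69.3% of a well-counted gene's sum of squares on the log2 scale of scaled counts. The replicate number took 4.12%, ISRIB 1.07% and the rest 18.1%. Each share includes noise, and a factor with more levels, as the replicate number has, takes more of it.

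The ISRIB effects of the 2 states did not resemble each other. They come from separate libraries, 3 against 3 in M0 and 3 against 3 in M1. Over the 836 well-counted genes, 404 (48.3%) had the same sign in both, and across genes Pearson's r was -0.019 and Spearman's rho -0.061; the genes share libraries and are not independent. Over the 768 of these with a mean of at least 25 counts in each state, r was -0.18 and 362 (47.1%) had the same sign. After scaling to library size, 11 of 2356 genes (0.467%) had all ISRIB libraries outside the range of the vehicle libraries in both states and on the same side, 7 higher (0.297%) and 4 lower (0.17%). Another 22 (0.934%) were separated in opposite directions. Within a single state, 266 genes (11.3%) were separated in M0 and 273 (11.6%) in M1. With 3 libraries against 3, such separation can arise without an effect of ISRIB. Of the genes separated in both states, more lay on opposite sides than on the same side. Separation is given below only as a description of single genes.

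**Figure D2:**
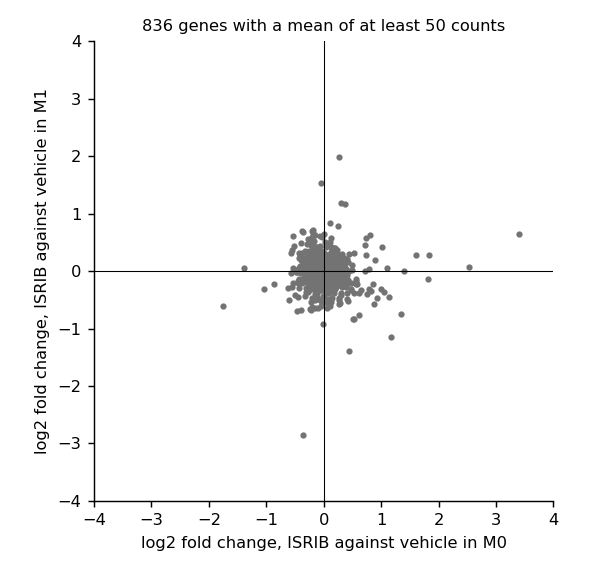
ISRIB against vehicle in M1 (vertical, log2 fold change) plotted against ISRIB against vehicle in M0 (horizontal, log2 fold change) for the 836 genes averaging 50 counts or more, 1 point each. The cloud is round and centred near 0, with 48.3% of genes on the same side of 0 in both states.

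Genes were described by a fixed rule, starting with those of lowest unadjusted p, and none of them passed the adjusted threshold. Dnajc1, which encodes an endoplasmic reticulum J-domain protein and overlaps Mllt10, was the best counted of the 4 genes whose ISRIB libraries lay below all vehicle libraries in both states. It had 537, 531 and 452 counts in vehicle M0 and 357, 424 and 471 in ISRIB M0. In M1 it had 466, 452 and 460 counts with vehicle and 308, 416 and 436 with ISRIB. After scaling, the groups did not overlap in either state. Its log2 fold change was -0.29 with a 95% interval of -0.48 to -0.11. Mroh2a (chr1:88226986-88262289) had 113, 146 and 118 counts in vehicle M0 against 97, 78 and 90 in ISRIB M0, and 52, 57 and 57 in vehicle M1 against 36, 46 and 27 in ISRIB M1. The groups did not overlap in either state, and the log2 fold change was -0.57 (-0.93 to -0.21).

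Gm16712, an antisense transcript on chromosome 17 that overlaps Ebi3 and Yju2, was the best counted of the 7 genes whose ISRIB libraries lay above all vehicle libraries in both states. Ebi3 encodes a subunit shared by interleukin 27 and interleukin 35. Gm16712 had 1177, 1135 and 1045 counts in vehicle M0 and 1299, 1251 and 1284 in ISRIB M0. In M1 it had 6507, 6076 and 5348 with vehicle and 7158, 7645 and 6987 with ISRIB. The groups were separate in both states, at a log2 fold change of only 0.21 (0.07 to 0.35). State moved the same symbol by a log2 fold change of 2.81, with an edgeR adjusted p of 1.36e-21.

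Prune2 had the largest log2 fold change of the well-counted genes, 0.79 (0.33 to 1.26), and the lowest unadjusted p (0.00167 in edgeR). It lies at chr19:16956118-17223932 and has no annotated opposite-strand overlap. Nearly all of its counts were in M0, with 412, 249 and 345 in vehicle and 606, 515 and 604 in ISRIB, without overlap. In M1 it had 0, 0 and 6 counts with vehicle and 6, 2 and 2 with ISRIB, so the pooled value is in effect that of M0. Its adjusted p was 0.914 by edgeR and 0.0435 by limma-voom. Gm15441, antisense to Txnip, was the other limma-voom call at the same adjusted p of 0.0435 and is named after its values were seen. It had 24970, 25951 and 23046 counts in vehicle M0 and 18507, 20942 and 21553 in ISRIB M0, where the scaled groups did not overlap. In M1 the groups overlapped, at 3614, 3506 and 4331 counts with vehicle and 4012, 3449 and 4197 with ISRIB. Its log2 fold change in edgeR was -0.15 (-0.29 to -0.013), with an adjusted p of 0.994.

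**Figure D3:**
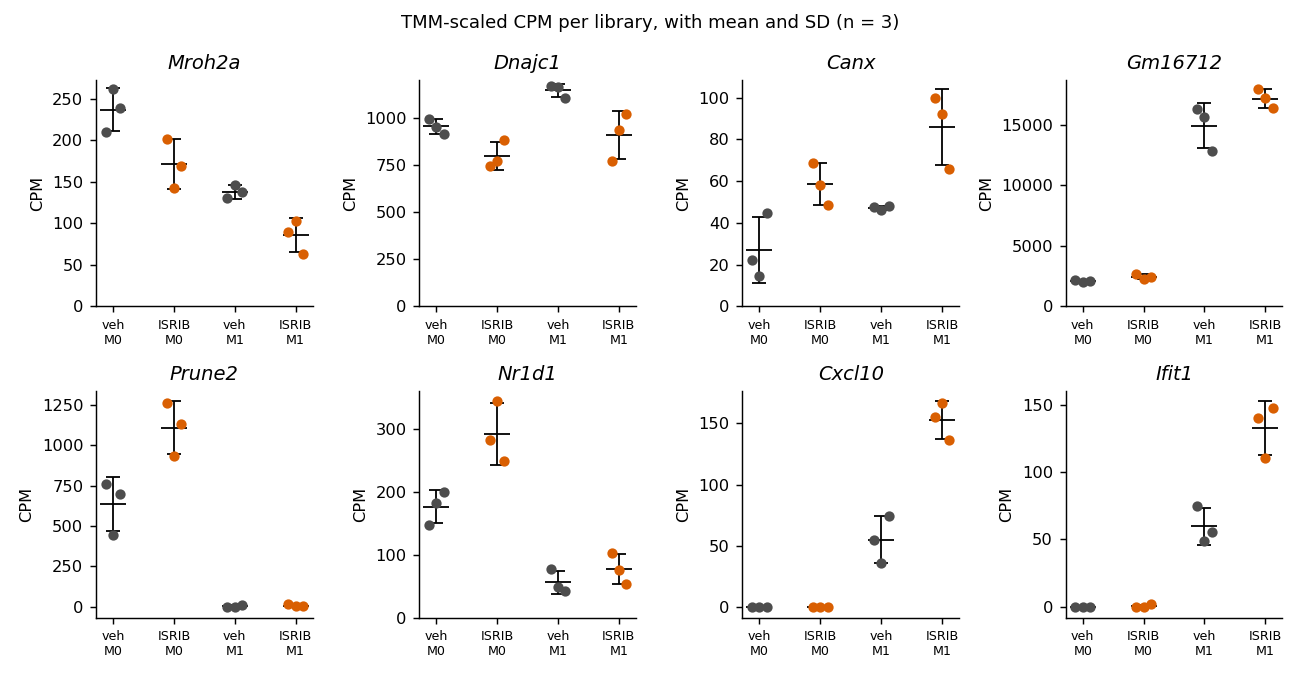
TMM-scaled CPM, the count as a share of the library total, per library for 8 genes, each point a library, with the mean and SD of 3 libraries in black, vehicle in grey and ISRIB in orange. Mroh2a, Dnajc1, Canx and Gm16712 are separated on the same side in both states, whereas Prune2 and Nr1d1 are separated in M0 and Cxcl10 and Ifit1 in M1.

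Several further genes under the rule were separated in 1 state. Emg1, a methyltransferase of ribosome assembly whose exons overlap Lpcat3, had 27, 15 and 21 counts in vehicle M1 against 44, 62 and 47 in ISRIB M1. In M0 its 109, 91 and 108 counts with vehicle overlapped the 126, 113 and 136 with ISRIB once scaled. The pooled log2 fold change was 0.68 (0.26 to 1.09). Nr1d1, the clock repressor REV-ERB alpha, which overlaps Thra, had 80, 102 and 99 counts in vehicle M0 against 136, 190 and 133 in ISRIB M0, and overlapping groups in M1 (31, 19 and 18 against 41, 34 and 23). Its pooled log2 fold change was 0.61 (0.20 to 1.03). Rasgrp4, a Ras exchange factor whose exons overlap Fam98c and Gm16282, had 361, 342 and 365 counts in vehicle M0 and 218, 287 and 280 in ISRIB M0. Its groups overlapped in M1, and the pooled value was -0.37 (-0.61 to -0.13). Lztr1, an adaptor for the ubiquitination of Ras proteins, had 48, 35 and 40 counts in vehicle M1 against 17, 18 and 8 in ISRIB M1, with overlap in M0 and a pooled value of -0.93 (-1.56 to -0.31).

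Of the remaining genes of the rule, those with lower values under ISRIB were Fam151a (log2 fold change -0.46), 0610040F04Rik (-0.56), Apobr (-0.50), Zc3h18 (-0.55), Ankdd1b (-0.53), Bcl2l14 (-0.63) and Cdc23 (-1.24), the last a subunit of the anaphase-promoting complex. Cdc23 rested in part on replicate 2 of vehicle M0, which had 173 counts against 54 and 59 in the other two, and its log2 fold change was -0.78 without that library. Higher were Focad (0.24), Tpra1 (0.71), Npc2 (0.69), which encodes a lysosomal cholesterol carrier, and 4930581F22Rik (0.75). Opposite-strand exons overlap Fam151a (Acot11), 0610040F04Rik (Bhlhe40), Apobr (Cln3, Il27), Ankdd1b (Poc5), Bcl2l14 (4933406J09Rik), Cdc23 (Kif20a), Focad (Hacd4) and 4930581F22Rik (St3gal4, Dcps). Cd163, a scavenger receptor of resting macrophages, had 1501, 1488 and 1496 counts in vehicle M0 and 1632, 1761 and 2342 in ISRIB M0. Its pooled log2 fold change was 0.43 (0.10 to 0.76), while M1 libraries of either treatment had at most 11 counts. Zfp36, which encodes the mRNA decay factor tristetraprolin, was too lowly counted for the rule and is named after its values were seen. It had 0, 0 and 1 counts in vehicle M0 and 11, 8 and 3 in ISRIB M0, and 2, 7 and 4 in vehicle M1 against 14, 27 and 8 in ISRIB M1. Both states were separated, and its log2 fold change of 2.48 (0.92 to 4.04) was the second in rank by unadjusted p.

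The pathway that ISRIB acts on was thinly measured. Of 42 listed stress response and ATF4 target genes, 16 had no count in any library and 7 could be tested. None of the 7 was called (background 0%), 2 were higher and 5 lower, and their median log2 fold change was -0.10 against 0.0031 over all 2356 genes. Atf3, a transcription factor induced downstream of ATF4, had 11, 11 and 1 counts in vehicle M0 against 8, 13 and 8 in ISRIB M0. In M1 it had 26, 15 and 29 with vehicle and 11, 31 and 19 with ISRIB. The groups overlapped in both states, and the log2 fold change was 0.00087 (-0.89 to 0.90). Ddit3, which encodes the stress factor CHOP and overlaps Mars, had 59, 48 and 38 counts in vehicle M0 against 49, 52 and 36 in ISRIB M0. In M1 it had 44, 27 and 29 against 26, 34 and 35, so groups overlapped throughout, at -0.10 (-0.58 to 0.38). Atf5, an ATF4-related factor whose exons overlap Il4i1 and Nup62, was the best counted of the list at 102 to 196 counts with vehicle and 80 to 165 with ISRIB, and overlapped in both states, at -0.13 (-0.44 to 0.18). For Ddit3 and Atf5, and narrowly for Atf3, the interval ended short of a log2 fold change of 1 in either direction. That bound is on the counts under each symbol. For Ddit3 and Atf5 these cannot be told apart from reads of their opposite-strand neighbours.

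Other tested members of the list were Psph, an enzyme of serine synthesis (0.53), Slc3a2, the heavy chain of amino acid transporters (-0.06), and the C/EBP factors Cebpg (-0.16) and Cebpb (-0.63). Atf4 itself had 5, 4 and 0 counts in vehicle M0, 2, 1 and 0 in ISRIB M0, 8, 0 and 6 in vehicle M1 and 0 in all 3 ISRIB M1 libraries. Ppp1r15a, which encodes the eIF2 phosphatase subunit GADD34, had 0, 6 and 4 counts in vehicle M0, 4, 0 and 0 in vehicle M1 and 0 in all 6 ISRIB libraries. Both fell under the count filter, so neither was tested. Asns (asparagine synthetase) had at most 4 counts and Psat1 (serine synthesis) at most 8. Trib3, a pseudokinase, and Chac1, which degrades glutathione, were at 0 throughout the 12 libraries. With the strand setting not given, such low counts limit what was counted under the symbol and not the level of its mRNA. Slc7a11, the cystine transporter, had at most 10. Of the 3 CARE windows shown above, only that of Atf3 thus belongs to a tested gene.

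The target of ISRIB and most of its neighbours in the pathway had few counts too, with the same limit on what such counts say of the mRNA. Eif2b1 to Eif2b5, the 5 subunits of eIF2B, had at most 8 counts in any library and Eif2b3 had 0 in all. Of 16 listed genes of eIF2, eIF2B, the eIF2 kinases and phosphatases, Eif2ak2 and Ppp1r15b were tested. Eif2ak2, the kinase PKR, had 13, 17 and 23 counts in vehicle M0 and 26, 27 and 19 in ISRIB M0. In M1 it had 72, 43 and 37 with vehicle and 46, 98 and 58 with ISRIB, overlapping in both states, at 0.38 (-0.16 to 0.91). Ppp1r15b, a constitutive eIF2 phosphatase subunit, had -0.43 (-1.35 to 0.50). Of 20 cytoplasmic aminoacyl-tRNA synthetases, which charge tRNAs, 3 were tested and 0 called, all lower: Mars (-0.28, interval -0.70 to 0.14), Qars (-0.11) and Yars (-0.87, interval -2.57 to 0.83). Mars had 61, 54 and 24 counts in vehicle M0 against 20, 38 and 47 in ISRIB M0, and 107, 98 and 133 in vehicle M1 against 109, 109 and 90 in ISRIB M1, and overlapped in both. Over all 55 tested genes with the CARE letters in their window, 0 were called, 3 (5.45%) had an unadjusted p under 0.05, and the median log2 fold change was -0.0073. Among the 1788 tested genes with a window but no match, 77 (4.31%) had an unadjusted p under 0.05 and the median was 0.0041.

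**Figure D4:**
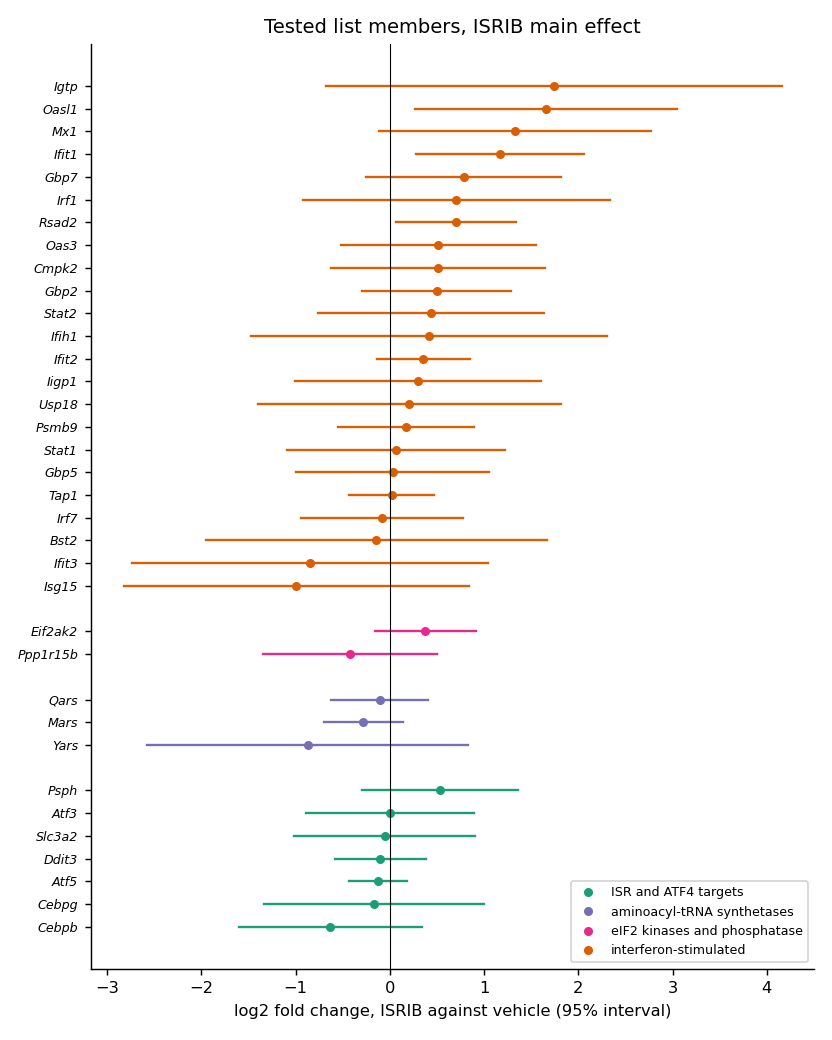
Log2 fold change of ISRIB against vehicle (horizontal) with its 95% interval for the tested members of 4 lists, 1 row per gene, coloured by list. Intervals of 3 interferon-stimulated genes, Oasl1, Ifit1 and Rsad2, lie above 0 and those of the other members cross it.

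Interferon-stimulated genes lay mostly on the higher side without any call. Of 40 listed, 23 were tested, 19 were higher and 4 lower under ISRIB, 0 passed (background 0%) and 3 had an unadjusted p under 0.05 (background 3.9%). Their median log2 fold change was 0.42. For 18 of the 23 the M0 libraries averaged under 3 counts, so the value pooled over states was measured in M1. Ifit1, an antiviral protein that binds foreign RNA ends, had 30, 19 and 23 counts in vehicle M1 against 56, 49 and 63 in ISRIB M1. In M0 it had 0 counts but for 1 in an ISRIB library. Its groups did not overlap in M1, and the log2 fold change was 1.17 (0.28 to 2.06). Oasl1, a relative of the oligoadenylate synthetases, had 10, 6 and 11 counts in vehicle M1 against 32, 38 and 25 in ISRIB M1, also separate, at 1.66 (0.26 to 3.05). Rsad2, the antiviral enzyme viperin, had 198, 77 and 136 counts in vehicle M1 against 295, 218 and 157 in ISRIB M1, which overlapped, at 0.70 (0.063 to 1.34). Others did not share the direction: Isg15, a ubiquitin-like modifier, had 20, 14 and 15 counts in vehicle M1 against 3, 10 and 12 in ISRIB M1 without overlap (-0.99, interval -2.82 to 0.84).

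The lean of this list depended on the libraries numbered 2. Without them its median log2 fold change was 0.0015, without those numbered 1 it was 0.81 and without those numbered 3 it was 0.46. By contrast 22 of the 23 were called higher in M1 than in M0 in the same edgeR fit (background 29.5% higher). The 18 that averaged under 3 counts in M0 passed the count filter through M1, which favours such calls, so the background is not a like one. Among the 94 tested genes with the ISRE letters in their window, 0 were called for ISRIB, 7 (7.45%) had an unadjusted p under 0.05, 59 were higher and the median was 0.093. Among the 1749 tested genes with a window but no match, 73 (4.17%) had an unadjusted p under 0.05, 870 were higher and the median was -0.0015. For state the medians were 0.84 and -0.03.

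M1 inflammatory genes as a list were centred near 0. Of 30, 13 were tested, 0 were called, 8 were higher and 5 lower, and the median log2 fold change was 0.04. With M1, 12 of the 13 were called higher (background 29.5%). Several of them, such as Nos2 and Cxcl9, had 0 counts in all M0 libraries. They passed the count filter through M1, which favours such calls, so the background is not a like one. Cxcl10, a chemokine for activated T cells that overlaps Art3, stood apart with 22, 14 and 31 counts in vehicle M1 against 62, 74 and 58 in ISRIB M1, and 0 in all 6 M0 libraries. The M1 groups did not overlap, and the pooled log2 fold change was 1.43 (0.49 to 2.36), with an edgeR adjusted p of 0.914. Its sister chemokine Cxcl9 had 112, 78 and 82 counts in vehicle M1 against 92, 108 and 98 in ISRIB M1, at 0.05 (-0.54 to 0.64). Nos2, the inducible nitric oxide synthase, had 20, 12 and 38 counts against 10, 30 and 24, at -0.20 (-1.57 to 1.16). Il1b, the cytokine interleukin 1 beta, which overlaps Il1bos, had 18, 12 and 20 counts in vehicle M1 against 22, 26 and 23 in ISRIB M1, without overlap, at 0.52 (-0.70 to 1.75). For Nos2 and Il1b the interval reaches beyond a log2 fold change of 1, so a difference of that size was not excluded. Tnf (at most 10 counts in a library) and Il6 (at most 6) were not tested.

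Genes of endoplasmic reticulum folding split. Of 26 listed genes that XBP1 or ATF6 induce, 8 were tested, 4 higher, 4 lower and 0 called, with a median of -0.05. Both with an unadjusted p under 0.05 are lectin chaperones of glycoprotein folding, and they lay on opposite sides. Canx (calnexin, chr11:50293961-50325673) had 12, 8 and 22 counts in vehicle M0 against 33, 32 and 26 in ISRIB M0, and 19, 18 and 20 in vehicle M1 against 40, 41 and 28 in ISRIB M1. It was separate in both states, at 0.98 (0.35 to 1.62). Calr (calreticulin) had 13, 13 and 9 counts against 8, 5 and 3 in M0, without overlap, and 57, 28 and 51 against 39, 21 and 21 in M1, with overlap, at -0.90 (-1.62 to -0.19). Neither has an annotated opposite-strand overlap. Calr was also called higher in M1 than in M0 (log2 fold change 2.46, edgeR adjusted p of 1.25e-06), and Canx was not (0.67, edgeR adjusted p of 0.065).

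In the remaining lists 0 genes were called as well. Of 18 translation and ribosome genes 9 were tested, 8 higher and 1 lower, with a median of 0.46 that ran from 0.19 without the libraries numbered 3 to 0.99 without those numbered 1. Eif3b, a subunit of initiation factor eIF3, had at most 18 counts in a library and a log2 fold change of 1.47 (-0.02 to 2.97). Of 16 antioxidant genes 8 were tested, 2 higher and 6 lower, with a median of -0.08. Sqstm1, the autophagy receptor p62, which overlaps Mrnip, had 14, 9 and 1 counts in vehicle M0 and 10, 19 and 20 in ISRIB M0, which overlapped. Its M1 groups did not, with 8, 4 and 11 against 14, 35 and 24, and the log2 fold change was 1.31 (0.36 to 2.27). Tested members ran 7 higher and 5 lower for chemotaxis (12 of 32), 2 and 4 for resting macrophage genes (6 of 22), 3 and 2 for cholesterol and lipids (5 of 24), 4 and 1 for heat shock and stress granules (5 of 14), and 5 and 4 for glycolysis (9 of 18). The proliferation list had 1 tested gene of 16, with a log2 fold change of -0.0015.

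An additive model describes a gene poorly where ISRIB differed between the states, and the interaction was therefore tested for each gene. By edgeR no gene passed an adjusted p of 0.05 (0%), and 167 (7.09%) were under 0.05 before adjustment. Without replicate 1 of ISRIB M0 4 genes passed, Basp1 and Mrpl48 among them, and without replicate 2 of ISRIB M0 Gbp7 did. Nisch was at 0 in each vehicle M0 library and had 6, 6 and 15 counts in ISRIB M0, but 42, 20 and 39 in vehicle M1 against 57, 43 and 23 in ISRIB M1. The pooled log2 fold change was 1.14 (0.057 to 2.23). Averaging the 2 states equally, rather than by the additive fit, gave 3.13, since the M0 fold then rests on a group at 0. Gbp7, an interferon-induced GTPase, had 0 counts in vehicle M0 and 11, 1 and 9 in ISRIB M0, with overlap in M1 (60, 45 and 34 against 38, 46 and 66), and a pooled value of 0.78 (-0.25 to 1.82). Vgll4, a cofactor that competes for TEAD factors, had 1, 6 and 10 counts in vehicle M1 and 0 in ISRIB M1, with overlap in M0 (38, 44 and 41 against 47, 27 and 34), at -0.92 (-2.02 to 0.18).

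Basp1 and Mrpl48 had fitted values of opposite sign in the 2 states, though neither interaction passed the adjusted threshold in the main fit. Basp1, a membrane-bound signalling protein, had 156, 249 and 131 counts in vehicle M0 against 169, 499 and 312 in ISRIB M0, and 801, 989 and 1140 in vehicle M1 against 721, 893 and 467 in ISRIB M1. The scaled groups of Basp1 overlapped in M0. In M1 they were barely separate, with 2005.9 CPM in the lowest vehicle library and 2004.7 in the highest ISRIB library, and the unscaled counts overlapped. Its pooled log2 fold change was 0.10 (-0.35 to 0.55), with fitted values of 0.88 in M0 and -0.57 in M1. Mrpl48, a mitochondrial ribosomal protein gene that overlaps Rab6a, had 36, 73 and 57 counts in vehicle M0 against 53, 248 and 126 in ISRIB M0, and 66, 102 and 142 in vehicle M1 against 41, 108 and 47 in ISRIB M1. Groups overlapped in both states, and the pooled value was 0.30 (-0.39 to 1.00), with 1.35 in M0 and -0.75 in M1. The edgeR adjusted interaction p was 0.18 for Basp1 and 0.21 for Mrpl48, or 0.024 for each with the replicate number in the fit. Rmdn1 and Phrf1 were described as fixed genes of the rule and overlapped in both states. Rmdn1 had 405, 366 and 325 counts in vehicle M0 against 377, 306 and 375 in ISRIB M0, and 14, 18 and 9 in vehicle M1 against 2, 20 and 1 in ISRIB M1, at -0.20 (-0.71 to 0.31). Phrf1, which overlaps the interferon regulator Irf7, had 298, 217 and 239 counts in vehicle M1 against 332, 248 and 236 in ISRIB M1, and at most 2 in M0, at 0.06 (-0.38 to 0.51).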

How the data were processed

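The authors deposited a table of raw counts for 24552 gene symbols and a table of log2 values, which match log2 of the count over a size factor per library, plus 1. The submitters' processing notes name FastQC, HTSeq, DESeq2 and the mm10 build. The aligner, annotation and strand setting are not given in the sources used here. Libraries were strand-specific TruSeq mRNA, per the labels. The analysis used edgeR 4.0.16 (R 4.3.3) on the counts: filterByExpr over the 4 groups (minimum count 10, total 15; 2356 genes, 97.6% of counts), TMM, glmQLFit and glmQLFTest, and Benjamini-Hochberg adjustment. The model was state plus treatment; a mean per group gave each state and the interaction. Standard errors and 95% intervals come from the fit's information matrix and quasi-dispersion, with the Poisson error as a floor; an interval can differ slightly from the test, as for Eif3b. DESeq2 1.42.0 and limma 3.58.1 were alternatives.

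Named genes were those past an adjusted p of 0.05 (0), the 8 higher and 8 lower of lowest unadjusted p averaging 10 counts or more, the 5 and 5 of largest fold change averaging 50 or more, fixed genes, and list members with an unadjusted p under 0.05. Members and lists were chosen with earlier results of these data known. Exon overlaps come from GENCODE vM21, which has 24186 of the symbols, and promoter windows from RefSeq. One count was worth 1.79 to 2.57 CPM. Deviations from the group means over the 836 genes were correlated between libraries. For same-numbered ISRIB and vehicle libraries of a state, correlations were -0.069 to 0.28, above 0.1 in 3 of 6 pairs. Over all groups, same-numbered pairs had a mean of 0.057, with 7 of 18 above 0.1. Pairs of different numbers had a mean of -0.028, with 4 of 36 above 0.1. Deviations sum to 0 within a group, so the mean for different numbers largely follows from that for same numbers and is no separate comparison. Same-numbered libraries were slightly alike on average, and the cause was not tested. The labels do not say what a shared number stands for, and the main model left it out. Results of a model that includes it are given below.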

Additional observations from a re-analysis of the deposited data

How the results depend on the processing

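Of 26 refits of the ISRIB effect, 25 called 0 genes and limma-voom called 2; leaving out single libraries or replicate numbers gave 0 in every case, with 68 to 101 genes at an unadjusted p under 0.05 (33 to 405 over all refits). With a replicate block in the fit, ISRIB gave 0 genes (87 at an unadjusted p under 0.05) and the interaction 3; no other call changed with it. The interaction gave 9 genes without a filter on low counts and 0 to 4 with libraries left out. ISRIB in M0 gave 3 genes by the DESeq2 Wald test, 1 by limma-voom, 10 without a filter, 1 with robust dispersions, 2 among genes with no opposite-strand overlap and 0 to 4 with libraries left out (4 without replicate 1 of ISRIB M0, 2 without replicate 2); ISRIB in M1 gave 0 to 1 (Rmdn1, without replicate 2 of ISRIB M1). M1 against M0 gave 612 genes among those with a mean of 50 counts and 413 among those with no opposite-strand overlap, where fewer genes were tested. Values near 0 changed sign. Atf3 was -0.013 with upper-quartile scaling, -0.0376 by limma-voom and -0.019 with the block, and Basp1 -0.17 by limma-voom. With libraries left out, log2 fold changes ran from -0.32 to 0.38 for Atf3, -0.14 to 0.30 for Basp1, -0.16 to 0.61 for Mrpl48, -0.21 to 0.093 for Ddit3, -0.054 to 0.25 for Cxcl9, -0.15 to 0.21 for Phrf1 and -0.77 to 0.27 for Nos2. ISRIB minus vehicle ran from -2444.5 to 23561 total counts, from -59.3 to 272.5 genes with a count, and from -0.50 to -0.27 percentage points for the 10 most counted genes. The cause of these changes was not tested. Depth limits genes under a mean of 50 counts.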
